A study of Homo sapiens with 115 samples.

Results

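Budding p53-/- cells were compared with pre-budding p53-/- cells, stage [B] against stage [P], in HCT116, a human colorectal cancer cell line. By genotype and stage in the labels, 8 [B] and 11 [P] cells belonged to the comparison, 19 of the 43 cells of this line, while the p53+/+ line gave 72 further cells to the series. All 19 were labelled as carrying the p53 deletion, in 1 clone made by homologous recombination, although the values of 1 library, 7194, went against that label. All were exposed to 8 Gy of radiation. The [P] cells were taken on day 7 and the [B] cells on day 10, and each cell was picked by pipette under a microscope and sequenced as 1 library of amplified full-length cDNA. The labels name no culture, so each stage of the line counts as 1 sample, and no test between the stages was possible.

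In textbook terms, irradiated cells that skip division can become giant cells with many genomes, and budding is a release of small progeny from such a cell. Genes of DNA replication are switched on by E2F factors before S phase, and genes of the spindle and of cytokinesis are switched on later, through promoter elements called CHR. When p53 is present it holds down both sets through CDKN1A, the CDK inhibitor p21. Cells without p53 lack that control.

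Values are CPM, counts scaled to 1 common library total, in single cells, and a difference is the median over [B] cells minus the median over [P] cells of log2(CPM + 1). The pseudocount understates changes of low genes. Of 10985 genes kept, those with a count in at least 10 of the 19 cells and averaging 5 CPM or more, 538 were at least 2-fold higher in [B] (4.9%) and 1049 at least 2-fold lower (9.55%). The all-gene median was -0.15, and with differences centred on it 769 genes were higher and 750 lower. Name prefixes may mark preparations, although the labels do not say so, and only prefixes 1118 and 1206 held both stages, each with 1 [B] cell and 4 [P] cells. Genes past 2-fold and in the same direction within both prefixes numbered 171 higher (1.56%) and 504 lower (4.59%). Stage, day and most name prefixes cannot be told apart in this design.

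Totals ran from 9035862 to 67086907 counts per cell, and 11184 to 19258 genes had at least 1 count. The cells of prefix 1206 included the 3 with fewest genes, namely 1206P3, 1206G6 and 1206P1. Mitochondrial ribosomal RNA took 0.344% to 26.1% of the counts, with the highest share in the [B] cell 61913-LBK1835. Of the epithelial markers, 6 of 10 were kept, and their summed level was 2098 to 13131 CPM in [B] and 758 to 6834 CPM in [P], but the intestinal markers CDX1 and VIL1 were at 0 in all 19 cells. The sums were 0.665 to 40.6 and 0.310 to 69.1 CPM for fibroblast markers, 0.332 to 89.6 and 0 to 51.2 CPM for immune markers, and 1.56 to 224.3 and 0.141 to 76.1 CPM for endothelial markers, in [B] and [P] respectively. CD3E, MS4A1, FCGR3A, LUM, THY1, CDH5 and KDR were at 0 in every cell. No pair of cells looked like copies, the highest correlation of log2(CPM + 1) being 0.899.

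**Figure D1:**
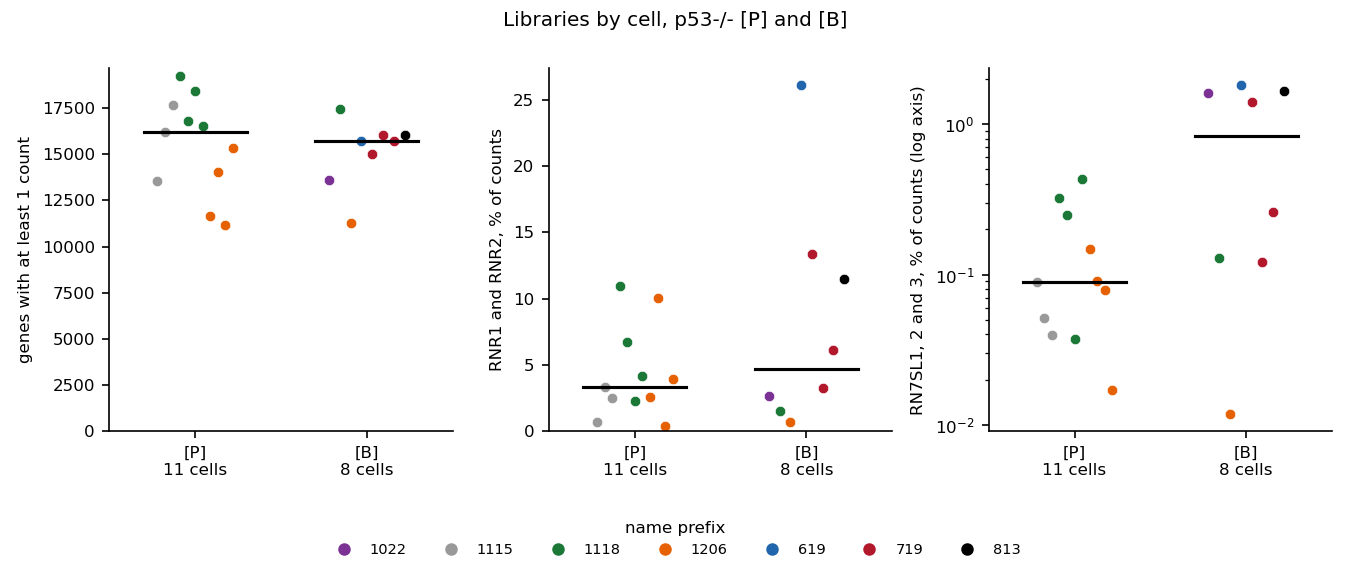
Genes with at least 1 count, the share of counts from the mitochondrial ribosomal RNAs RNR1 and RNR2, and the share from the 7SL RNAs (log axis), 1 point per cell coloured by name prefix, with bars at the medians. The 7SL share reached 1.82% in [B] cells and 0.433% in [P] cells.

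The p53 target CDKN1A was examined in every cell as a check on the labels. In p53-/- cells CDKN1A ranged from 102.9 to 504 CPM in [P], with a median of 280.3, and its [B] median was 210.2.

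One library went against its label. In the library labelled p53-/- [B] 7194, CDKN1A stood at 2146 CPM, whereas the other 7 [B] cells had 36.5 to 358 and p53+/+ [B] cells had a median of 1485. FDXR and TP53I3, both p53 target genes, were at 128 and 179.7 CPM there, against at most 28.7 and 67.0 in the other [B] cells. Not all targets were raised, since ZMAT3, MDM2 and BAX stood at 15.9, 86.6 and 61.1 CPM there, within the range of the other [B] cells. The mean log2(CPM + 1) over 26 p53 targets was 7.32 in this library, 3.95 to 5.68 in the other [B] cells, and lower than 7.32 in 27 of 28 p53+/+ [B] cells. It also held the lowest levels of the cell cycle lists. Values without it are therefore given below where leaving it out turned a direction or moved a value by more than 1.5 times, and for the cell cycle lists.

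Genes of the cell cycle and of recombination were lower in [B] cells. Over DNA replication, mitotic spindle and kinetochore, cyclins and CDKs, homologous recombination and Fanconi, and abscission and midbody genes, the distinct genes kept were counted once each. Of these, 67 were at least 2-fold lower in [B] (57.8%, against 9.55% of all genes) and 0 were at least 2-fold higher. The median difference was -1.14, with 110 genes below 0 and 6 at or above it. Without the library 7194 the median was -0.93 and 52 genes were at least 2-fold lower. Of the 67, 27 had the same direction within both prefixes, beside 504 of all 1049 lower genes.

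**Figure D2:**
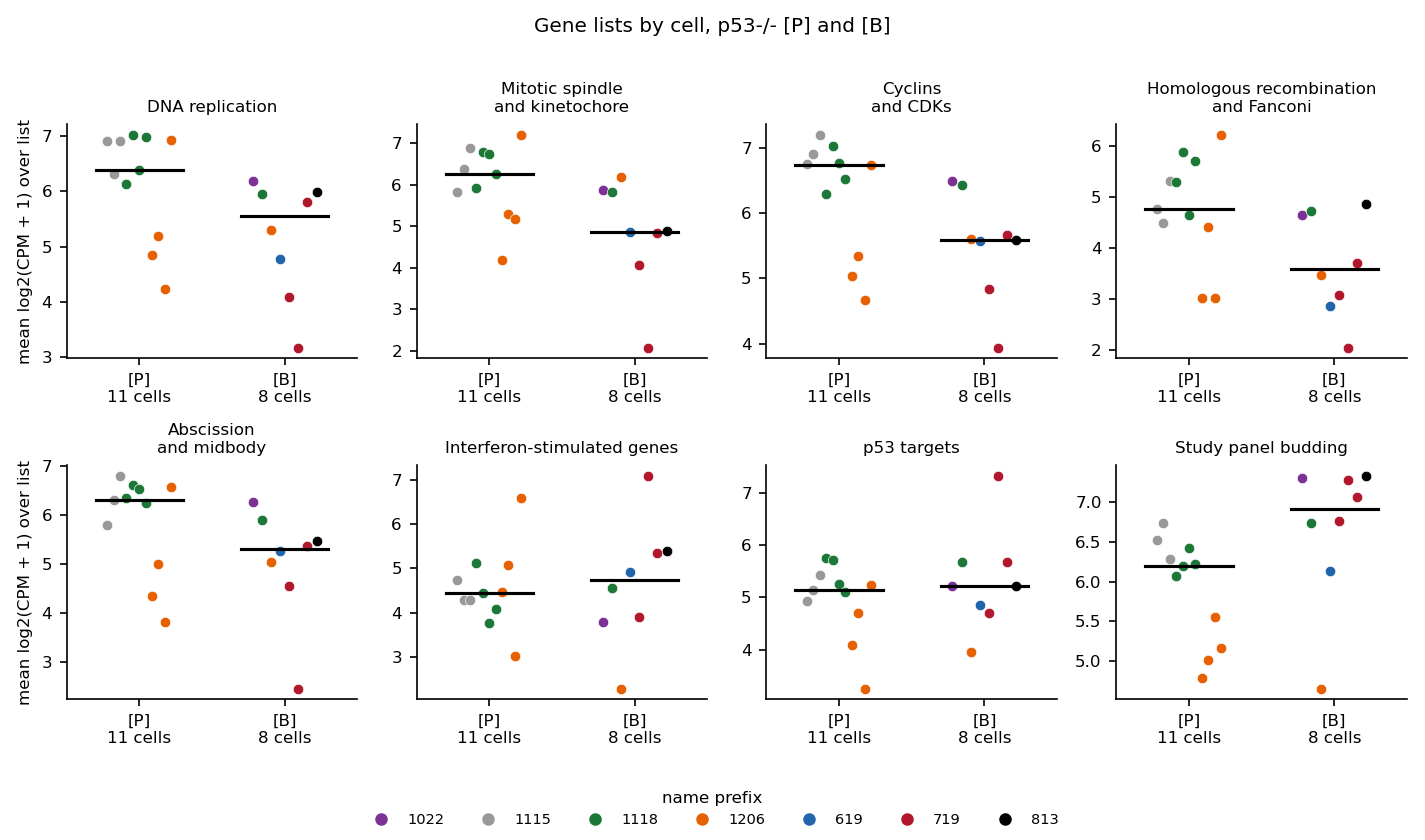
Mean log2(CPM + 1) over the kept genes of 8 lists, 1 point per cell coloured by name prefix, with bars at the medians of 11 [P] and 8 [B] cells. In DNA replication, spindle, cyclin and abscission genes all 8 [B] cells sit below the [P] median, while the [P] cells of prefix 1206 run from below the [B] median to above every [B] cell.

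Replication genes were lower when all cells were pooled. Within prefix 1206 they were not, with a list median of 0.24 and 18 of 32 genes above 0. All 32 measured replication genes had a difference below 0, with a list median of -1.30, and 20 of them were at least 2-fold lower. Without 7194 the median was -0.99 and 14 were at least 2-fold lower. MCM2, a subunit of the helicase that opens replication origins, ranged from 16.2 to 221.5 CPM in [P] with a median of 140.2, and from 6.10 to 76.98 CPM in [B] with a median of 25.2. All 8 [B] cells were below the [P] median and 3 were below the lowest [P] cell. Summed over cells, MCM2 was at 35.7 CPM in [B] (exact Poisson 95% interval 35.0 to 36.4) and 116.7 CPM in [P] (115.7 to 117.7). These intervals cover counting error only, since amplified reads without molecular identifiers are not independent molecules. GINS2, a part of the same helicase, had medians of 49.5 CPM in [B] and 187.6 CPM in [P]. The helicase subunit MCM6 differed by -1.999, but by -1.07 without 7194. POLE2, a subunit of the leading-strand polymerase, differed by -1.87.

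Spindle genes showed the most negative list median. All 26 lay below 0, 18 were at least 2-fold lower, and the list median was -1.43, or -1.19 without 7194. BUB1B, the checkpoint kinase BUBR1, ranged from 1.32 to 122 CPM in [P] with a median of 87.1, and from 0 to 90.2 CPM in [B] with a median of 13.8. The [B] cell with 90.2 CPM was 1206G6, so the groups overlapped. NUF2, part of the NDC80 complex that binds microtubules, had medians of 16.02 and 75.4 CPM in [B] and [P], and all 8 [B] cells were below the [P] median. CENPK, of the inner kinetochore, was below the lowest [P] cell in 7 of 8 [B] cells and above the highest [P] cell in the other. The checkpoint kinase TTK differed by -1.91.

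Promoters of both groups carry letters known from their regulators. Shown here are 3 genes of each list that were at least 2-fold lower in [B]. Each averaged 20 CPM or more and had a match upstream of the start site. Not every gene of each list entered this choice, so these need not be the 3 with the most negative difference. They were chosen after the values were seen. The first 3 are spindle genes with the CHR letters TTTGAA, and the last 3 are replication genes with an E2F form, in capitals. Each is written 5′ to 3′ on the strand of the gene, from RefSeq promoters in GRCh38.p14, with up to 25 bases on each side but none after the start site.
BUB1B, chr15:40161021-40161068, + strand: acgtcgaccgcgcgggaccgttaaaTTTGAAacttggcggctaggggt
SPC25, chr2:168890647-168890680, - strand: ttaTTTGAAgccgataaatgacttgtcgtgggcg
HMMR, chr5:163460585-163460631, + strand: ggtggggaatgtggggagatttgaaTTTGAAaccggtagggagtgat
MCM6, chr2:135876501-135876558, - strand: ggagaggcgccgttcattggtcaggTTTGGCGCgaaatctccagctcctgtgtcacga
GINS2, chr16:85688955-85689010, - strand: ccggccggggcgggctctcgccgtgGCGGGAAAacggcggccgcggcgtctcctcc
RFC3, chr13:33818069-33818126, + strand: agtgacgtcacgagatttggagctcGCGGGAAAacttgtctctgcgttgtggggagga
In these windows, BUB1B, HMMR and GINS2 carried the match close to the start site, ending 18, 17 and 24 bases before it. SPC25, another NDC80 subunit, carried it far upstream, and RFC3 encodes a subunit of the clamp loader.

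The same letters were counted in 300 bases, from 250 before to 50 after the start, on both strands. CHR was searched as TTTGAA, and E2F as any of TTTCCCGC, TTTGGCGC, TTTGCCGC and TTTCGCGC, forms that can overlap one another. Promoters were found for 8446 of the 10985 kept genes. CHR letters stood in 13 of 21 spindle promoters (61.9%) and 12 of 18 abscission promoters (66.7%), against 15.4% of all 27305 promoters and 9.20% of the kept genes. E2F forms stood in 16 of 28 replication promoters (57.1%), against 3.33% of all promoters and 5.77% of the kept genes. Among all genes at least 2-fold lower in [B], 16.7% held CHR letters and 9.76% an E2F form, and among those at least 2-fold higher the shares were 6.93% and 4.53%. The letters of the interferon-stimulated response element (ISRE), searched on both strands, stood in 21 of 29 promoters of interferon-stimulated genes (72.4%). They stood in 2.60% of the lower and 4.27% of the higher genes, against 3.65% of all promoters and 2.57% of the kept genes. A match is a description of the letters and not of binding.

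Cyclins and CDKs had a median of -1.09, with 9 of 15 genes at least 2-fold lower, and without 7194 these values were -0.73 and 6. CDK1, the kinase of mitotic entry, ranged from 55.9 to 670 CPM in [P] with a median of 355, and from 0 to 309 CPM in [B] with a median of 97.3. All 8 [B] cells were below the [P] median, and the 0 belonged to 7194. CCNE2, the S-phase cyclin E2, differed by -2.87, and all 8 [B] cells were below the [P] median of 28.4 CPM. CDC25B, a phosphatase that activates CDK1, differed by -1.18. The difference of CCNA2, cyclin A2, was -1.22, and -0.47 without 7194. The proliferation marker MKI67, added after its values were seen, had medians of 95.7 and 208 CPM in [B] and [P].

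Genes of homologous recombination and the Fanconi pathway, which repair double-strand breaks and crosslinks from a sister copy, were at least 2-fold lower for 12 of 23. The list median was -1.03, and -0.95 without 7194. BARD1, the partner of BRCA1, ranged from 0.451 to 121.1 CPM in [P] with a median of 29.9, and from 0 to 41.2 CPM in [B] with a median of 5.22, a difference of -2.38. In 3 of 8 [B] cells it lay below every [P] cell and in 7 below the [P] median. The helicase BLM differed by -2.21 and RAD54B, a DNA translocase, by -2.18. BLM was at -1.20 without 7194. BRCA1, BRCA2 and PALB2, which act together in recombination and were added after their values were seen, differed by -1.47, -3.08 and -0.60, and PALB2 by -0.95 without 7194.

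Abscission and midbody genes, which cut the bridge between daughter cells, had a median of -0.93, with 8 of 20 at least 2-fold lower. CEP55, which brings the ESCRT machinery to the midbody, had a median of 44.3 CPM in [B] and 142.7 CPM in [P], and all 8 [B] cells were below the [P] median. INCENP and AURKB, both of the chromosomal passenger complex, differed by -1.77 and -1.68, and RACGAP1, of the central spindle, by -1.41. PLK1 was at 0.39 and chosen after its value was seen. Without 7194 the list median was -0.67, against an all-gene median of -0.17, 5 genes were at least 2-fold lower, and CEP55 differed by -1.12.

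Name prefixes gave different answers. Within 1118 the list medians were -0.72 for replication, -0.73 for spindle, -0.21 for cyclins, -0.51 for recombination and -0.55 for abscission, with 29 of 32 replication genes and 21 of 26 spindle genes below 0. Within 1206 they were 0.24, 1.32, 0.55, -0.04 and 0.41. The [P] cells 1206P1 and 1206P3 were low in these lists. Few genes were detected in both, 11657 and 11184, but also in the [B] cell 1206G6, 11265. Their spindle levels were 4.19, 5.17 and 6.19 in the same order. The part of gene detection in these values was not tested. Within 1206, BUB1B, TTK, CDK1 and CCNA2 were higher in the [B] cell, by 2.25, 2.97, 1.06 and 1.67. The all-gene median was 0.09 within 1118 and -0.68 within 1206. Pooled without the 5 cells of prefix 1206 the medians were -1.16 for replication, -1.57 for spindle, -1.18 for cyclins, -1.20 for recombination and -1.22 for abscission. Without the 3 [B] cells 7192-LBK1848, 7194 and 7195 they were smaller, at -0.86, -0.81, -0.44, -0.41 and -0.56 in the same order. For each [P] cell, the median over list genes of its value minus the [P] median was also taken. The SD of this over the [P] cells was 0.75 to 1.22 on the log2 scale for these 5 lists, of the size of the differences.

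**Figure D3:**
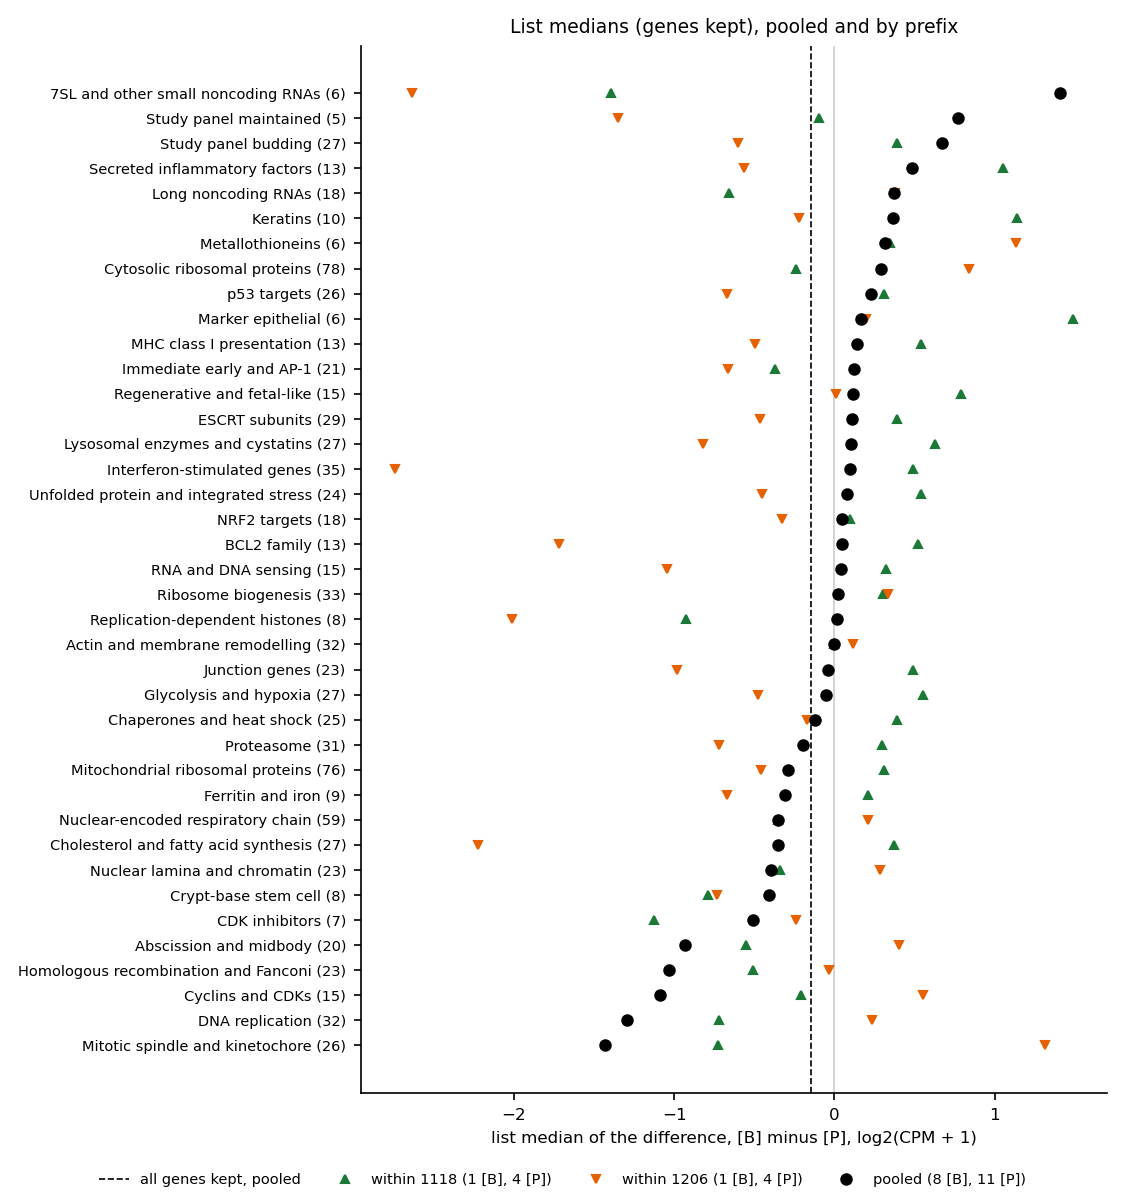
Median difference, [B] minus [P] in log2(CPM + 1), for 39 lists with the number of kept genes, pooled (black), within prefix 1118 (green) and within prefix 1206 (orange), with the all-gene median of -0.15 dashed. The 5 cell cycle and repair lists lie lowest when pooled, from -1.43 to -0.93, and the 7SL list highest at 1.41.

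Levels of the same lists over the other stages of the line put the [B] median lowest, although single cells overlapped. Mean log2(CPM + 1) over replication genes had a median of 7.11 in 7 [N] cells (not irradiated per the methods, although their labels give 8 Gy), 6.39 in [P], 5.55 in [B], 6.19 in 9 newly budded [S] cells and 6.94 in 8 repopulated [R] cells. For spindle genes the medians were 6.98, 6.27, 4.88, 6.42 and 6.49 in the same order. The lowest [R] cell, at 6.62 for replication and 6.25 for spindle genes, was above every [B] cell in both lists. In the p53+/+ line the median over 28 [B] cells was 4.71 for replication and 3.23 for spindle genes, and over 6 [P] cells 4.37 and 3.38. The [B] minus [P] list medians in that line were 0.02 and -0.43, beside -1.30 and -1.43 in p53-/- cells. Whether the lines differ in this was not tested.

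**Figure D4:**
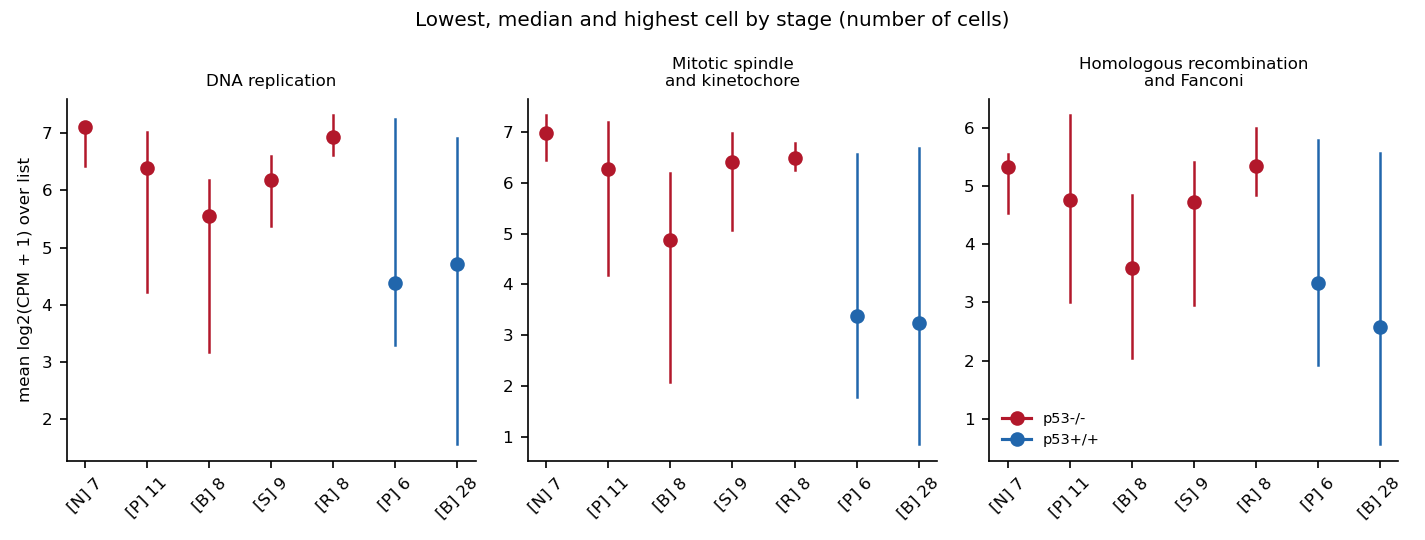
Mean log2(CPM + 1) over 3 lists, with the lowest, median and highest cell of each stage, p53-/- in red and p53+/+ in blue, and the number of cells beside each stage. The [B] median is the lowest of the 5 p53-/- stages in each of the 3 lists.

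Single genes were ranked by how far the quartiles of the stages stood apart, among genes past 2-fold that averaged 20 CPM or more and moved in the same direction within both prefixes and in summed counts. This left 62 higher and 213 lower genes, of which 12 each are described. Since that choice used the same values, these are a description.

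PISD, the mitochondrial enzyme that makes phosphatidylethanolamine, did not overlap between the stages. How many of all kept genes did not overlap was not counted. PISD ranged from 2.20 to 80.3 CPM in [P] with a median of 47.8, and from 86.3 to 178.6 CPM in [B] with a median of 133.8, a difference of 1.45. Its [N], [S] and [R] medians of 94.7, 81.7 and 79.6 CPM lay between those of [P] and [B], and in the p53+/+ line the [B] and [P] medians were 138.3 and 172.3 CPM. SRPRA, the receptor for the signal recognition particle, differed by 2.21, and GFER, a sulfhydryl oxidase of mitochondrial protein import that the study itself named for budding, by 1.05. DNAJB9, an endoplasmic reticulum co-chaperone, had medians of 69.5 CPM in [B] and 29.7 CPM in [P], and SLC16A3, the lactate exporter MCT4, differed by 1.29.

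TFPI, an inhibitor of the tissue factor pathway, differed by 1.68, with a [P] median of 19.97 CPM and a [B] median of 66.3 CPM. MGLL, which cleaves monoacylglycerols, differed by 1.24 and CCNK, the cyclin of CDK12 and CDK13, by 1.26. The adaptor SH2D3A was above every [P] cell in 7 of 8 [B] cells. TMEM115, a Golgi protein, differed by 1.34, the transporter family member SLC10A3 by 1.66 and the secreted EGFL7 by 1.32. The groups overlapped for each of these genes.

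NFYB, a subunit of the CCAAT-binding factor NF-Y, had the most [B] cells below the [P] range among the 12 lower genes. It ranged from 34.1 to 120.7 CPM in [P] with a median of 51.3, and from 0 to 34.4 CPM in [B] with a median of 10.7. In 7 of 8 [B] cells NFYB lay below every [P] cell, and the eighth, 1118G3, was just inside the [P] range. TIPIN, which protects stalled replication forks, had medians of 25.8 and 72.6 CPM in [B] and [P], with 4 [B] cells below every [P] cell. PSMC3IP, which acts in recombination, differed by -2.16 and NCAPD3, of condensin II, by -1.86. For all 4 genes the 8 [B] cells were below the [P] median.

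TMSB15A, an actin-binding thymosin, had the largest difference of the 24, at -3.24, with medians of 1.17 CPM in [B] and 18.96 CPM in [P]. Reads of its near-identical relatives may have been split or shared by the counting. ARHGAP11A, a GTPase-activating protein with a copied relative of its own, differed by -1.96. DLEU2, a noncoding RNA that hosts miR-15a and miR-16-1, differed by -1.81, and C9orf40 by -2.07. TTF2, a transcription termination factor, URB2, of ribosome biogenesis, MTFR2, of mitochondrial fission, and HINT2, a mitochondrial nucleotide hydrolase, differed by -1.49, -1.57, -1.33 and -1.08.

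**Figure D5:**
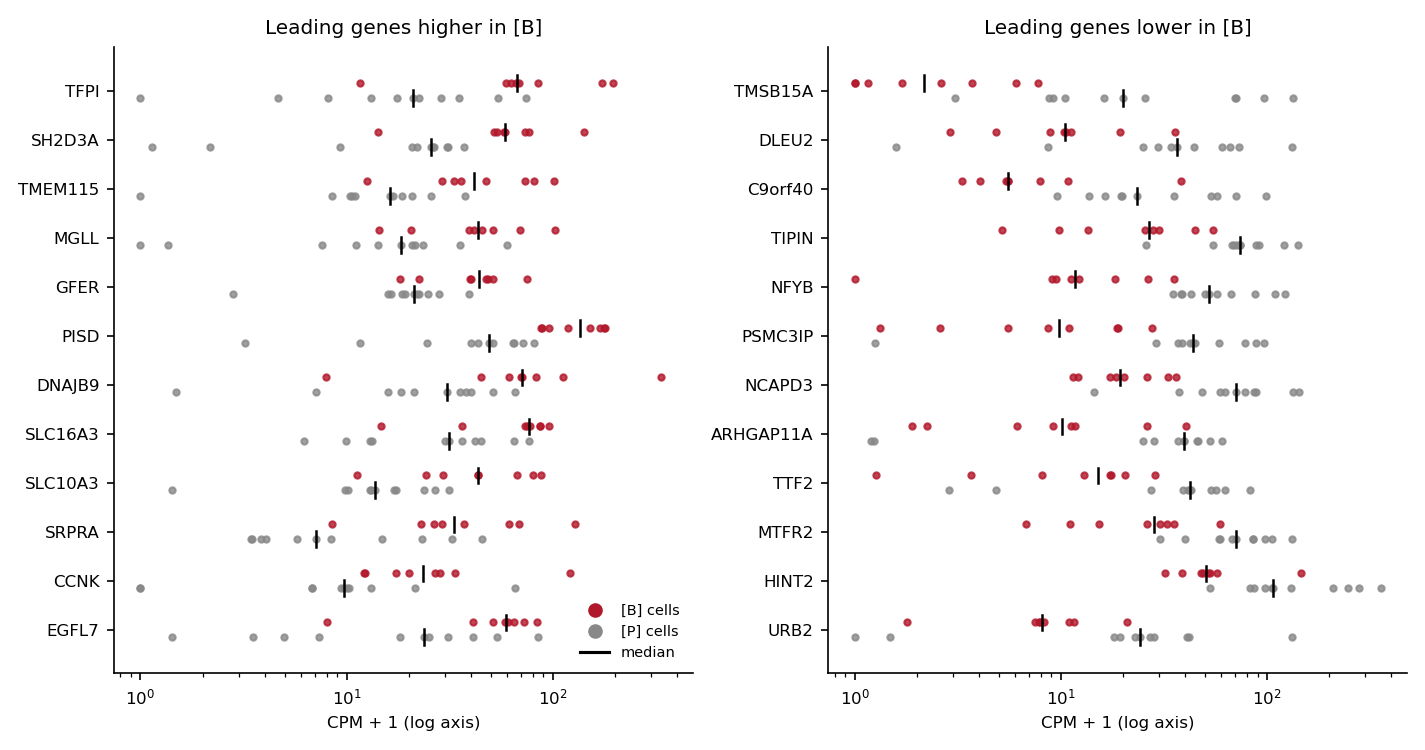
CPM + 1 on a log axis for the 12 higher and 12 lower genes, with [B] cells in red, [P] cells in grey and black ticks at the medians. PISD is the one gene of the 24 in which the 8 [B] and 11 [P] cells do not overlap. The 24 were chosen for separated quartiles, and overlap was not counted over all kept genes.

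The 7SL RNAs, the RNA core of the signal recognition particle, included RN7SL2, the named gene with the largest positive difference. It ranged from 57.1 to 1672 CPM in [P] with a median of 240.4, and from 42.4 to 9025 CPM in [B] with a median of 4075, a difference of 3.63. RN7SL2 was at 6835 to 9025 CPM in the [B] cells 10222G, 61913-LBK1835, 7192-LBK1848 and 8133, and at 42.4 to 1314 CPM in the other 4 [B] cells. RN7SL1 and RN7SL3 differed by 2.42 and 2.17, or by 3.63 and 3.04 without 7194, and the 3 genes share near-identical sequence, so reads can move between them. Within 1118 and 1206 the direction was opposite, at -1.24 and -2.43 for RN7SL2. The high [B] cells belong to prefixes with no [P] cell, so stage and prefix cannot be told apart for these RNAs. The mitochondrial ribosomal RNA RNR2 differed by 0.65, and RNR1 by 0.00, or 1.09 without 7194.

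Gene panels that the study chose on these samples are not independent evidence. Only a part of each panel was used here, and the rest was not analysed. Of 27 genes from its budding panel, 25 lay above 0 and 7 were at least 2-fold higher (25.9%, against 4.9% of all genes), with a median of 0.67, and without 7194 it was 5 genes and 0.58. IGFBP6, which binds insulin-like growth factors, ranged from 59.5 to 863 CPM in [P] with a median of 285.6, and from 145 to 5680 CPM in [B] with a median of 1168. It was above every [P] cell in 5 of 8 [B] cells. CCDC85B, SERTAD1 and HM13 differed by 1.75, 1.72 and 1.22, and the co-chaperone CDC37, the inositol synthase ISYNA1, the creatine enzyme GAMT and the synuclein SNCG by 0.82, 0.72, 0.31 and 0.93. Without 7194 GAMT was at -0.0086 and SNCG at 0.58. Within 1206 the panel median was -0.60, and within 1118 it was 0.39. The 5 genes used of those the study called maintained had a median of 0.77, and besides RN7SL2 they were CST3 at 0.86, RPS12 at 0.77, KRT19 at 0.67 and SELENOM at 0.16, or -0.09 without 7194.

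Antiviral genes showed no common direction in this line. Of 35 interferon-stimulated genes, 7 were at least 2-fold higher (20%, against 4.9% of all genes) and 3 at least 2-fold lower in [B] (8.57%, against 9.55%), with a median of 0.10. Without 7194 the counts were 6 and 6 and the median -0.29, and leaving out 1206G6 gave a median of 0.49. Within 1118 the list median was 0.49 and within 1206 it was -2.74. The same direction within both prefixes held for 0 of the 7 higher and 1 of the 3 lower genes. Over all genes this held for 171 of 538 higher and 504 of 1049 lower. OASL ranged from 0.302 to 270.4 CPM in [P] and from 1.53 to 3894 CPM in [B], a difference of 3.09. IFI44 and ISG20 differed by 2.42 and 1.94, and PLSCR1 by -1.84. OAS3 differed by -0.94, IFI6 by 0.44, ISG15 by 0.75 and DDX58, the RNA sensor RIG-I, by 0.19, or -0.10 without 7194. ISG15 was at 20557 CPM in 7194 and at 331 to 14644 CPM in the other [B] cells.

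ESCRT subunits, which pinch membranes in abscission and in viral budding, had a median of 0.11, with 3 of 29 at least 2-fold higher (10.3%, against 4.9% of all genes) and 0 lower (against 9.55%). Without 7194 there were 2 higher and 2 lower, with a median of -0.0018. VPS28 and CHMP7 differed by 1.05 and 1.08, VPS37B by 0.97, CHMP4A by -0.83 and CHMP2A by -0.46. Within 1206 VPS28 was at -2.68. Of 26 p53 targets, 4 were at least 2-fold higher (15.4%, against 4.9% of all genes), and without 7194 this was 1 of 26. That gene was BAX, which opens mitochondria in apoptosis, with medians of 32.5 and 7.16 CPM in [B] and [P]. BTG2, TNFRSF10B and PHLDA3 differed by 1.17, 1.03 and 0.80, and MDM2, which degrades p53, by -0.29. Within 1118 BAX was at 1.37 and the p53 target list at 0.31. Within 1206 they were at -0.70 and -0.67, beside an all-gene median of -0.68.

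Other lists lay closer to the background. Secreted inflammatory factors had a median of 0.48, keratins 0.36 and long noncoding RNAs 0.37, about 0.5 above the all-gene median. None kept that distance whichever cell was left out, since the medians then ranged from 0.19 to 0.79, 0.25 to 0.59 and 0.09 to 0.43, with 0.11 for long noncoding RNAs without 7194. PLAU, the urokinase protease, differed by 0.70 and its receptor PLAUR by 0.66. KRT17 differed by 1.61, though its [B] median was 3.89 CPM and 3 of 8 [B] cells exceeded every [P] cell, and KRT7 and KRT81 by 0.97 and 0.86. Without 7194 KRT17 was at 0.85 and KRT7 at 0.45. NEAT1, PVT1, UCA1 and SNHG5 were at -0.72, 0.65, 0.62 and 0.61, but without 7194 NEAT1 was at 0.44 and UCA1 at 0.10. The 28 lists within 0.5 of the all-gene median had medians between -0.51 and 0.32, among them 78 cytosolic ribosomal proteins at 0.29, 33 ribosome biogenesis genes at 0.03 (-0.0097 without 7194) and 59 respiratory chain genes at -0.35. CD44, MYC and PROM1, which the study followed as stem cell genes, differed by 0.24 (0.13 without 7194), -0.73 and -0.16, and PROM1 was below the filter with medians of 0 and 0.118 CPM.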

How the data were processed

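Single p53-/- HCT116 cells at 2 stages were analysed, 8 [B] and 11 [P]. Per the methods, reads were trimmed by fastp, mapped by HISAT2 2.0 on GRCh38 and quantified by StringTie, and the authors deposited a table of whole-number counts for 43386 genes. The tool that wrote those counts is not given in the sources used here. The sequencer is given as NextSeq 500 by the labels and otherwise by the methods. All columns of the cells were mapped by title.

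CPM were scaled by the library total. Members, lists and the rule for named genes were chosen with earlier results of these data known. The 12 genes per direction were chosen as the report states, and up to 4 genes with the largest difference were named in lists standing at least 0.5 from the all-gene median, in ESCRT, interferon and p53 lists. Clone-style names were counted but not named, and a few genes that the rule names are not reported here. The genes that the study named were added. Of 42 lists, 39 had at least 5 kept genes, and the mitochondrial messenger RNAs were not analysed here. Coordinates and promoters are from RefSeq. Depth was 9035862 to 67086907 counts per cell.

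The code was tested on simulated data. Alternatives were the mean over cells, summed counts, a pseudocount of 10, TMM factors (edgeR 4.0.16, R 4.3.3), other filters, thinning to 9035862 counts, leaving out cells or prefixes, and values within prefixes. Those added after seeing the data were totals without mitochondrial and 7SL RNA, leaving out prefix 1206, weighting prefixes alike, and centring. Python 3.11.15, numpy 2.4.6, pandas 2.3.3, scipy 1.17.1 and matplotlib 3.10.9 were used.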

Additional observations from a re-analysis of the deposited data

Results flagged for a closer look

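Among the 8 [B] cells, single cells stood apart from the other 7 by Dixon's criterion for the values below (log2(CPM + 1), or its mean over a list). For independent values chance gives about 1 in 20, and 25 of 144 values met it (17.4%). Lists and genes of the same 8 cells are not independent, and many genes were named for their differences. The 17.4% can therefore not be judged against chance. The [P] cells were not screened.

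The [B] cell 1206G6 gave 18 of the 25. It was lowest for ESCRT subunits (4.24, next 5.69), the BCL2 family (2.06, next 4.97), immediate early genes (3.43, next 4.97), junction genes (4.17, next 5.68), NRF2 targets (5.48, next 6.91), the maintained panel (6.91, next 9.02) and the budding panel (4.65, next 6.14). Among genes it was lowest for SH2D3A at 3.83, EGFL7 at 3.01, NFYB at 0, URB2 at 0.85, VPS28 at 2.25, RN7SL3 at 1.11, CST3 at 4.67, CCDC85B at 2.30, SERTAD1 at 2.02 and CDC37 at 2.73, and highest for CCNK at 6.92. This cell had the fewest genes detected of the [B] cells, 11265, and its part in these values was not tested.

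The library labelled p53-/- [B] 7194 had the highest total, 59786305 counts, and was lowest for abscission genes at 2.45 (next 4.54), CDK1 at 0, BRCA1 at 0 and MKI67 at 0.81 (next 6.29). The cell 10222G was lowest for TFPI at 3.54 and highest for HINT2 at 7.20.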

How the results depend on the processing

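Of 1287 list medians and 3007 gene differences recomputed, most moved by less than the spread among [P] cells. Many of the alternatives left out only 1 cell, and for the cell cycle lists that spread was of the size of the differences. Small moves were therefore likely from the start and do not measure stability. The replication and recombination lists stayed below 0 under the alternatives that pool prefixes or average over both, although replication was at 0.24 within 1206 alone. Values within prefixes 1118 and 1206 differed most. There the list medians were 0.28 for spindle, 0.21 for cyclins, 0.0104 for abscission, -0.33 for replication, -1.90 for 7SL and other small RNAs, -0.46 for long noncoding RNAs, -0.72 for the maintained panel and -0.19 for the budding panel. Among genes they were 0.84 for BUB1B, 0.79 for TTK, 0.30 for CDK1, 0.63 for CCNA2, 0.34 for SPC25, 0.38 for HMMR, 0.38 for RFC3, 0.33 for MKI67, -1.61 for VPS28, -0.37 for OASL, -1.81 for IFI44, -2.51 for ISG20, -1.83 for RN7SL2, -1.96 for RN7SL1, -2.78 for RN7SL3, -0.78 for CCDC85B and -0.55 for SERTAD1. Without the [B] cells 7192-LBK1848, 7194 and 7195 IFI44 was at -0.16 and the median of long noncoding RNAs at -0.0052. The latter was -0.0104 without the [P] cells of prefix 1115, and without prefix 1206 and 7194 keratins were at -0.0006 and the 7SL list at 2.52. The causes were not tested.

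Counts of genes moved more than medians. Genes past 2-fold, 1587 with 33.9% of them higher in [B], were 464 at a pseudocount of 10, 339 among genes averaging 50 CPM or more, and 4526 within prefixes. Those with one direction within both prefixes were 194 at a pseudocount of 10 and 97 among genes averaging 50 CPM or more. The split was 613 higher and 668 lower by the mean over cells, 708 and 616 by summed counts, 636 and 876 with TMM factors, 675 and 874 with totals free of mitochondrial ribosomal and 7SL RNA, 969 and 1173 without the [P] cells of prefix 1115, 373 and 1201 without prefix 1206, and 308 and 1258 without prefix 1206 and 7194. Leaving out 1 cell gave 1400 to 1942 genes, and 582 to 829 with one direction within both prefixes. The lists then ranged from -1.59 to -1.19 for spindle, -1.58 to -0.99 for replication, -1.26 to -0.73 for cyclins, -1.62 (without 1206P2 or 1206P3) to -0.95 for recombination and -1.04 to -0.67 for abscission. No paired analysis was possible because replicate numbers follow accession order and a stage counts as 1 sample. Values within the prefixes that hold both stages are descriptions only. The small number of cells, 1 prefix or day per most cells, and depth of a single amplified library limit every difference.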
